A study of Canis lupus familiaris with 12 samples.

Results

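The small leucine-rich proteoglycans were followed as 9 genes: DCN (decorin), BGN (biglycan), ASPN (asporin), LUM (lumican), FMOD (fibromodulin), PRELP, OMD (osteomodulin), OGN (osteoglycin) and EPYC (epiphycan). They were taken by gene name from the 24223 genes listed for each tissue, where DCN and BGN stand under their UniProt entry names, and all 9 were present and tested in both tissues. RNA-seq compared mitral valve and left ventricle between dogs diagnosed with DMVD, degenerative mitral valve disease, in which the valve thickens and leaks, and control dogs, with 12 libraries from 8 animals. The DMVD valve group was a Pomeranian aged 9 years and a pair of Beagles aged 16 and 17 years, and the control valve group was a Beagle aged 8 years and Hound mixes aged 3 years, with 3 libraries in each group. The DMVD ventricle group was a Jack Russell Terrier aged 5 years and a Pomeranian aged 9 years, and the control ventricle group was a Beagle aged 8 years and 3 Hound mixes aged 3 years. The labels name no treatment for any group. By the dog numbers in the sample names, 1 DMVD dog and 3 control dogs gave both tissues. Breed and age cannot be told apart from diagnosis in either tissue.

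Small leucine-rich proteoglycans are secreted proteins built around repeats rich in leucine, which bind collagen and most of which carry glycosaminoglycan chains. They set the thickness and spacing of collagen fibrils, and several also hold or present growth factors such as transforming growth factor beta. In a heart valve they lie in the collagen-rich and the proteoglycan-rich layers of the leaflet, and in heart muscle they belong to the interstitial matrix made mainly by fibroblasts. DMVD is known for disrupted collagen and a build-up of glycosaminoglycans in the leaflet. The comparisons ask how the transcripts of this family differ with the disease in the valve itself and in the ventricle behind it.

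The genes lie in 3 clusters and 1 single place on the CanFam3.1 build. DCN (ENSCAFG00000006142, chromosome 15, 31834014 to 31877417), LUM (ENSCAFG00000006138, 31791505 to 31800707) and EPYC (ENSCAFG00000006129, 31670414 to 31735104) stand near each other, with the keratan sulfate proteoglycan gene KERA (ENSCAFG00000006134, 31750744 to 31758598) between EPYC and LUM. FMOD (ENSCAFG00000009459, chromosome 38, 103799 to 112448) and PRELP (ENSCAFG00000009462, 198591 to 213796) form a second cluster. ASPN (ENSCAFG00000002307), OMD (ENSCAFG00000002309) and OGN (ENSCAFG00000002313) share 1 listed locus on chromosome 1, 98800119 to 99019334, with 3 other entries, among them the related matrix gene ECM2 and the centromere gene CENPP. The listed span covers all 6 entries and is no gene's own boundary. BGN (ENSCAFG00000019189) lies alone on chromosome X, 121330384 to 121335433. Each position is that of the whole gene, or of the shared locus, with exons and introns together.

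The values are FPKM, fragments scaled to transcript length and library size, and the authors' tables give 1 value per diagnosis in each tissue. No value per dog was used, so the spread between dogs, the depth of each library and the error of a level are not known. Because FPKM is scaled to transcript length, levels can be set side by side between genes of 1 group. A fold change below is DMVD over control on the log2 scale. The ± beside it is a standard error (SE) derived from the authors' test statistic, and a gene passed where its p, adjusted by the Benjamini-Hochberg method over all tested genes of that tissue, was under 0.05. With 1 value per group no exact test over dogs could be made, so each adjusted p rests on the authors' own test.

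No member passed in the diseased valve. Of the 9 genes, 7 had higher DMVD values and 2 lower ones, with a median log2 fold change of 0.14 beside 0.05 over all tested genes. All 9 had an adjusted p of 0.9999, and 0 had an unadjusted p under 0.05 in the authors' deposited table. Over all 14810 genes tested in the valve, 0.419% passed (0.311% with the DMVD value higher, 0.108% with it lower), while unadjusted p was under 0.05 for 4.2%. A count of 0 among 9 is near that background.

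The class I members carry chondroitin or dermatan sulfate, except ASPN. DCN, which binds collagen and limits fibril thickness, was the most abundant member in the valve with 1115 FPKM in DMVD and 1011 FPKM in control, a log2 fold change of 0.14 ± 0.92. BGN, its close relative with more glycosaminoglycan chains, had 933 FPKM in DMVD valves and 585.9 FPKM in control valves. Its log2 fold change of 0.67 ± 1.24, or 1.59-fold, was smaller than its SE. ASPN, which has a run of aspartates in place of the chain and binds collagen and transforming growth factor beta, had 89.3 FPKM in DMVD valves and 68.5 FPKM in control valves (0.38 ± 0.95). For all 3 genes the DMVD value was above the control value, by less than 1 SE.

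The class II members, most of which can carry keratan sulfate, had group values that lay close together in the valve, apart from OMD. LUM, which organises fibrils in transparent and fibrous tissue, had 620.3 FPKM in DMVD valves and 574.9 FPKM in control valves (0.11 ± 1.29). PRELP, a basic protein that binds heparan sulfate and links basement membranes to the matrix, had 134 FPKM in DMVD valves and 145 FPKM in control valves (-0.11 ± 0.81). FMOD, which steers collagen cross-linking, had 77.7 FPKM in DMVD valves and 77.9 FPKM in control valves. Its log2 fold change of -0.0043 ± 0.54 had a 95% interval from -1.06 to 1.06. OMD, first known from bone matrix, was the scarcest member with 6.46 FPKM in DMVD valves and 3.09 FPKM in control valves. That is 2.09-fold, but the SE of 2.78 exceeds the log2 fold change of 1.06.

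The class III members had close group values as well. OGN, also called mimecan, had 37.8 FPKM in DMVD valves and 35.4 FPKM in control valves (0.10 ± 1.33). EPYC, best known from growth plate cartilage, had 27.0 FPKM in DMVD valves and 21.9 FPKM in control valves. EPYC had the smallest SE of the members in the valve, with a log2 fold change of 0.30 ± 0.50 and a 95% interval from -0.69 to 1.29.

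**Figure D1:**
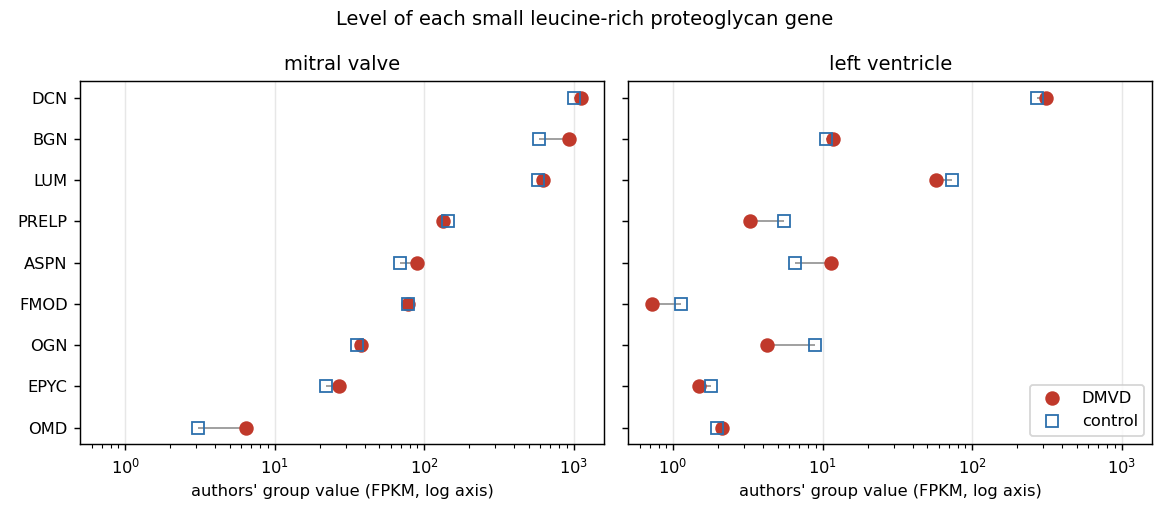
Group values of the 9 genes in FPKM on a log axis, mitral valve left and left ventricle right, filled circles for DMVD and open squares for control, with no error because the tables give 1 value per group. The paired symbols lie close together for most genes, while DCN, BGN and LUM lie at 574.9 to 1115 FPKM in the valve and DCN, with 310.6 and 273.8 FPKM, leads the ventricle.

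In the diseased ventricle no member passed either, and the values were divided, 4 higher and 5 lower in DMVD. Their median log2 fold change was -0.28 beside -0.04 over all tested genes. Adjusted p ran from 0.560 to 0.99997, and again 0 of 9 had an unadjusted p under 0.05 in the authors' deposited table. Of the 13788 genes tested in the ventricle, 3.08% passed (1.92% with the DMVD value higher, 1.16% with it lower), while unadjusted p was under 0.05 for 11.3%. Here too a count of 0 among 9 is near the background.

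The class I genes had higher values in the DMVD ventricle, by less than 1 SE each. DCN had 310.6 FPKM in DMVD ventricles and 273.8 FPKM in control ventricles (0.18 ± 0.50, 95% interval from -0.80 to 1.17). BGN had 11.7 FPKM in DMVD ventricles and 10.6 FPKM in control ventricles (0.15 ± 0.44, 95% interval from -0.71 to 1.02). ASPN had 11.3 FPKM in DMVD ventricles and 6.58 FPKM in control ventricles, a log2 fold change of 0.78 ± 0.91. These intervals leave room for about a doubling of DCN and BGN, and for more in ASPN.

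Most class II and III genes had lower values in the DMVD ventricle. LUM had 56.9 FPKM in DMVD ventricles and 73.6 FPKM in control ventricles (-0.37 ± 0.51). PRELP had 3.26 FPKM in DMVD ventricles and 5.48 FPKM in control ventricles. Its log2 fold change of -0.75 ± 0.43 had the lowest p of any member in either tissue, 0.0837 in the authors' deposited table, and its adjusted p was 0.560. PRELP and OGN were the 2 members whose ventricle difference was larger than 1 SE. OGN had 4.23 FPKM in DMVD ventricles and 8.94 FPKM in control ventricles (-1.08 ± 0.97, adjusted p = 0.852 from the authors' p). FMOD had 0.724 FPKM in DMVD ventricles and 1.13 FPKM in control ventricles (-0.64 ± 0.72), or -0.31 with 1 FPKM added to both groups. EPYC had 1.49 FPKM in DMVD ventricles and 1.81 FPKM in control ventricles (-0.28 ± 0.60, or -0.17 with 1 FPKM added). OMD had 2.12 FPKM in DMVD ventricles and 1.96 FPKM in control ventricles (0.11 ± 1.30).

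ASPN and OGN, both in the shared listed locus, stood on opposite sides in the ventricle. The OGN level per ASPN level was 0.374 in DMVD ventricles and 1.36 in control ventricles. In the valve it was 0.424 in DMVD and 0.516 in control. No error was computed for this ratio. In the ventricle it rests on log2 fold changes of 0.78 ± 0.91 for ASPN and -1.08 ± 0.97 for OGN, and neither gene passed. The other 2 named genes of that locus had large errors too: ECM2 had -0.36 ± 0.74 and CENPP 0.76 ± 1.75 in the ventricle, and ECM2 had -0.0007 ± 1.32 and CENPP 0.21 ± 5.20 in the valve. The labels and headers do not say whether reads were counted by strand. Whether genes of this locus overlap, and whether their reads were told apart, was not tested.

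**Figure D2:**
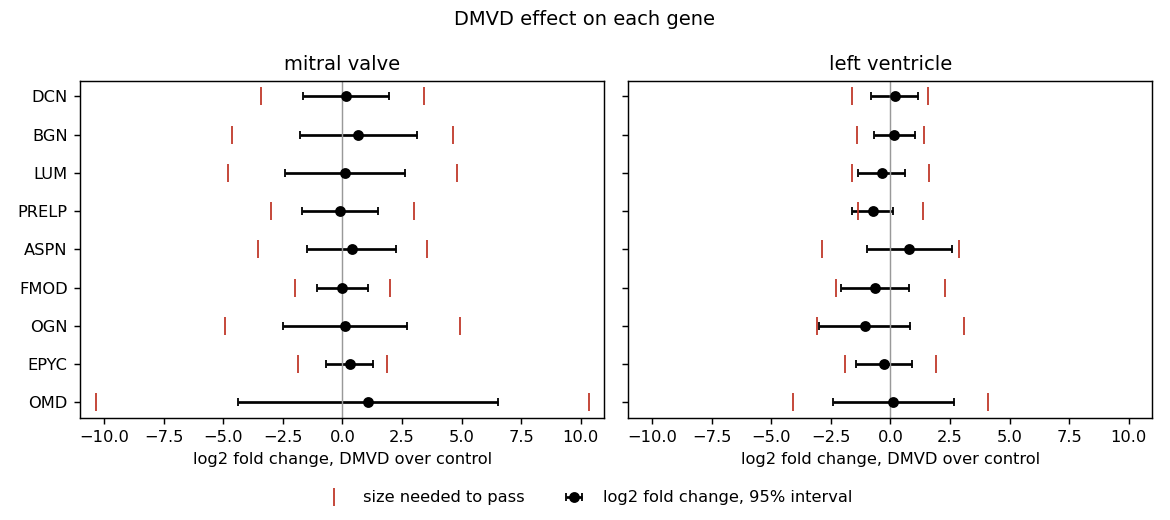
Log2 fold change of DMVD over control for each gene, valve left and ventricle right, with black 95% intervals from the SE, and red ticks at the size the fold change would have needed to pass the adjusted threshold with that SE. Every interval includes 0, and the ticks lie at 1.88 (EPYC) to 10.4 (OMD) in the valve and at 1.37 (PRELP) to 4.10 (OMD) in the ventricle.

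The size of these errors limits what the comparisons could show. The SE of the 9 genes ran from 0.50 to 2.78 with a median of 0.95 in the valve, and from 0.43 to 1.30 with a median of 0.60 in the ventricle. Genes of 5 FPKM or more, as the mean of both groups, had a median SE of 0.52 in the valve and 0.47 in the ventricle. At its own SE, BGN in the valve would have needed a log2 fold change of 4.63 to pass, LUM 4.80, OGN 4.94 and DCN 3.41. In the ventricle BGN would have needed 1.39, DCN 1.59 and LUM 1.60. None of the 9 intervals lay wholly between -1 and 1 in either tissue, so a doubling or a halving was not shut out in both directions for any member. In the ventricle the upper bound was under 1 for 5 members, LUM, FMOD, OGN, PRELP and EPYC, and the lower bound was above -1 for 3, DCN, BGN and ASPN.

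In the valve all 9 SEs were above the median of genes within 2-fold of the same mean level. The distance was small for EPYC (0.50 beside 0.50 for 3176 genes) and FMOD (0.54 beside 0.51 for 1244 genes). It was large for BGN (1.24 beside 0.60 for 212 genes), LUM (1.29 beside 0.59 for 237 genes) and OMD (2.78 beside 0.58 for 5342 genes). In the ventricle the members of the shared chromosome 1 locus stood out, with ASPN at 0.91 beside 0.48, OGN at 0.97 beside 0.49 and OMD at 1.30 beside 0.57. PRELP (0.43 beside 0.51) and BGN (0.44 beside 0.47) had smaller errors than genes of like level there.

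**Figure D3:**
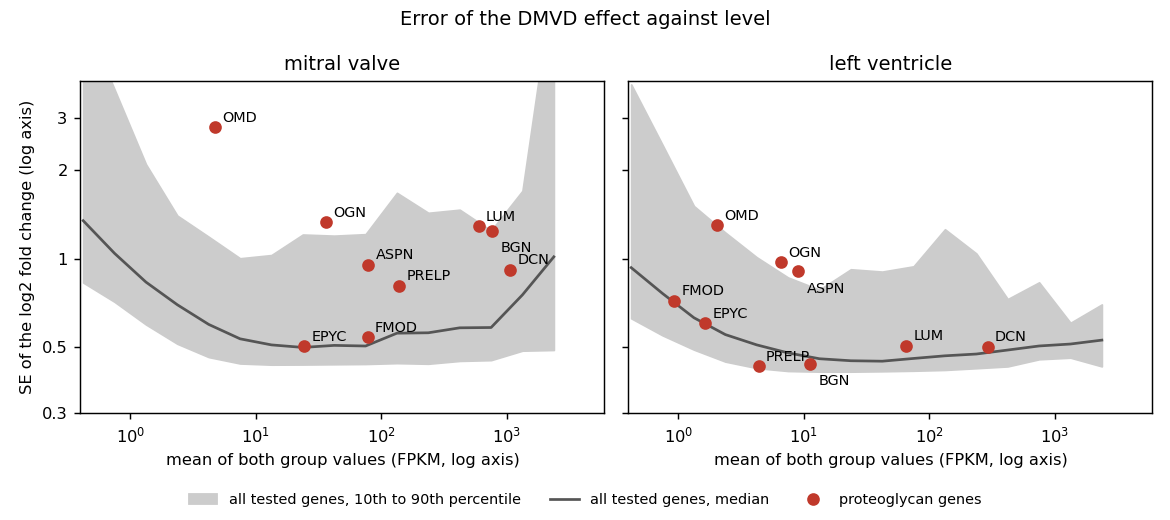
SE of the log2 fold change against the mean of both group values in FPKM, both axes logarithmic, valve left and ventricle right; red points are the 9 genes, the line is the median of all tested genes in bins of level and the grey band runs from their 10th to their 90th percentile. OMD and OGN lie near or above the 90th percentile in both tissues, and LUM and BGN well above the line in the valve.

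The DMVD effect was then compared between the tissues, as the valve log2 fold change minus the ventricle log2 fold change with the combined SE. No member passed (adjusted p = 0.99995 for each, a two-sided normal test on the authors' statistics with Benjamini-Hochberg adjustment over 13099 genes), beside 0.107% of all genes, and 0 of 9 had an unadjusted p under 0.05 beside 2.66% of all genes. The largest differences were 1.17 ± 1.65 for OGN, 0.95 ± 3.07 for OMD, 0.64 ± 0.90 for FMOD and 0.64 ± 0.92 for PRELP. For EPYC the difference was 0.58 ± 0.79, for BGN 0.52 ± 1.32 and for LUM 0.48 ± 1.39. DCN had -0.04 ± 1.04, with a 95% interval from -2.09 to 2.01, and ASPN -0.40 ± 1.32. The 2 comparisons share 4 dogs, which the combined SE takes as independent.

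The valve and the ventricle differed in which of these genes were abundant, as a description of group values from tables that were normalised separately. FMOD had 77.7 FPKM in DMVD valves beside 0.724 FPKM in DMVD ventricles, and 77.9 FPKM in control valves beside 1.13 FPKM in control ventricles, ratios of 107 and 68.8. For BGN the ratios of valve to ventricle were 79.4 in DMVD and 55.5 in control, and for PRELP 41.1 in DMVD and 26.4 in control. EPYC followed with 18.1 in DMVD and 12.1 in control. LUM had ratios of 10.9 in DMVD and 7.81 in control, ASPN of 7.88 in DMVD and 10.4 in control, and OGN of 8.94 in DMVD and 3.96 in control. DCN had only 3.59 in DMVD and 3.69 in control, and OMD 3.05 in DMVD and 1.58 in control. The median ratio over all genes above 1 FPKM in both tissues was 1.26 in DMVD and 1.24 in control. In control, 27.9% of those genes had a larger ratio than OMD. That median holds scaling and tissue difference together, so the effect of the separate scaling on these ratios was not tested.

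Ranks within a table do not depend on its scaling. Among the 14810 genes tested in the valve, DCN ranked 88 in DMVD and 103 in control, BGN 110 in DMVD and 180 in control, and LUM 165 in DMVD and 183 in control. Among the 13788 genes tested in the ventricle, DCN ranked 342 in DMVD and 309 in control, and LUM 1277 in DMVD and 925 in control. BGN ranked 3999 in DMVD ventricles and 4150 in control ventricles. FMOD moved furthest down the order between tissues, with rank 994 in DMVD valves and 979 in control valves beside 12241 in DMVD ventricles and 11556 in control ventricles.

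From high to low, the order in the valve was DCN, BGN, LUM, PRELP, ASPN, FMOD, OGN, EPYC and OMD in DMVD. In control valves the order was the same except that FMOD stood above ASPN. In the DMVD ventricle it was DCN, LUM, BGN, ASPN, OGN, PRELP, OMD, EPYC and FMOD, and in the control ventricle OGN stood above ASPN. Neighbours such as BGN and LUM in control valves (585.9 and 574.9 FPKM) or BGN and ASPN in DMVD ventricles (11.7 and 11.3 FPKM) lie so close that their order cannot be taken as fixed without the error of a level.

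The summed level of the 9 genes was 3040 FPKM in DMVD valves and 2524 FPKM in control valves, and 402.4 FPKM in DMVD ventricles and 383.8 FPKM in control ventricles. Without DCN the ventricle sums stood the other way, at 91.8 FPKM in DMVD and 110.0 FPKM in control. DCN made up 36.7% of the sum in DMVD valves and 40.1% in control valves, against 77.2% in DMVD ventricles and 71.3% in control ventricles. BGN held 30.7% in DMVD valves and 23.2% in control valves, but 2.92% in DMVD ventricles and 2.75% in control ventricles. LUM held 20.4% in DMVD valves and 22.8% in control valves, and 14.1% in DMVD ventricles and 19.2% in control ventricles. The 3 genes together made up 87.8% of the sum in DMVD valves and 86.1% in control valves, and 94.2% in DMVD ventricles and 93.3% in control ventricles. By class, class II made up 27.6% in DMVD valves and 31.7% in control valves, and 15.7% in DMVD ventricles and 21.4% in control ventricles.

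Expressed as a ratio, the BGN level per DCN level was 0.837 in DMVD valves and 0.579 in control valves, and 0.0378 in DMVD ventricles and 0.0386 in control ventricles. The LUM level per DCN level was 0.557 in DMVD valves and 0.569 in control valves, and 0.183 in DMVD ventricles and 0.269 in control ventricles. The shift of BGN against DCN in the valve rests on the BGN difference described above, which was smaller than its SE.

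**Figure D4:**
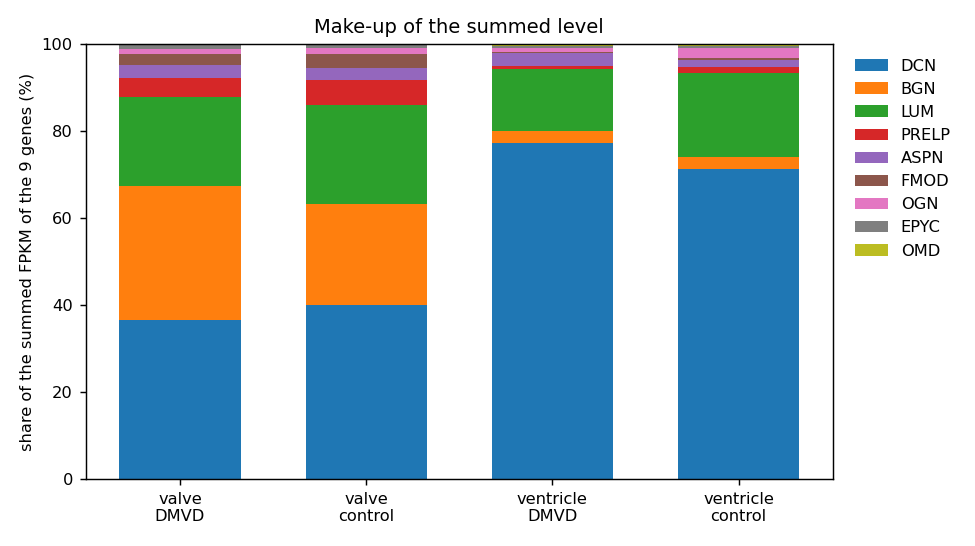
Share of each gene in the summed FPKM of the 9 genes, in percent, for DMVD valve, control valve, DMVD ventricle and control ventricle. DCN takes 71.3 to 77.2% in the ventricle groups, while in the valve groups DCN, BGN and LUM take 20.4 to 40.1% each.

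No gene passed among other leucine-rich matrix genes. KERA, the relative of LUM best known from cornea, had 54.1 FPKM in DMVD valves and 78.7 FPKM in control valves (-0.54 ± 0.50). In the ventricle KERA had 12.9 FPKM in DMVD and 23.4 FPKM in control. Its log2 fold change of -0.85 ± 0.43 had an unadjusted p of 0.0472 in the authors' deposited table and an adjusted p of 0.430. Of the 9 genes in this list (KERA, OPTC, CHAD, CHADL, NYX, TSKU, PODN, PODNL1 and ECM2), 8 were tested in the valve and 0 passed, with 4 values higher and 4 lower, a median of 0.02 and 0 unadjusted p under 0.05. Over all 14810 genes tested in the valve, 8132 values were higher and the median was 0.05. Of these, 0.419% passed and 4.2% had an unadjusted p under 0.05. In the ventricle 4 were tested and 0 passed, with all 4 values lower, a median of -0.79 and KERA alone under an unadjusted p of 0.05. Over all 13788 genes tested there, 7336 values were lower, the median was -0.04, 3.08% passed and 11.3% had an unadjusted p under 0.05. KERA, ECM2 and CENPP were named for their place beside members.

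Of 13 listed collagen genes whose products these proteoglycans bind, 9 were matched by name. In the ventricle 1 of 7 tested passed, where 3.08% of all genes did. COL14A1, a fibril-surface collagen, fell by 1.42 ± 0.44 on the log2 scale (adjusted p = 0.0417 from the authors' p), with 1.39 FPKM in DMVD and 3.71 FPKM in control. The other 6 did not pass, and the median of the list was -0.18. The COL14A1 call was lost when the authors' p was adjusted over both tissues together (adjusted p = 0.0675). Of 8 tested in the valve 0 passed and 0 had an unadjusted p under 0.05, beside 0.419% and 4.2% of all genes. There 7 values were higher in DMVD, beside 8132 of all 14810 genes, with a median of 0.47 beside 0.05 over all tested genes. COL14A1 had 0.66 ± 0.55 in the valve.

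Genes that build chondroitin and dermatan sulfate chains gave a called gene in each direction in the ventricle, 2 of 17 tested, where 3.08% of all genes passed. Of these, UGDH, which makes the UDP-glucuronate used in the chains, rose by 1.54 ± 0.43 (adjusted p = 0.0148 from the authors' p), with 11.7 FPKM in DMVD and 4.01 FPKM in control. CSGALNACT1, which adds the first N-acetylgalactosamine of a chondroitin chain, fell by 1.96 ± 0.52 (adjusted p = 0.00927 from the authors' p), with 0.553 FPKM in DMVD and 2.16 FPKM in control. Both calls were lost under Benjamini-Yekutieli adjustment of the authors' p (adjusted p = 0.149 for UGDH and 0.0937 for CSGALNACT1), and with 1 FPKM added to both groups CSGALNACT1 had -1.02. The other 15 did not pass, and the median was -0.02. An unadjusted p under 0.05 was found for 3 of the 17, beside 11.3% of all genes. Besides the 2 called genes this was XYLT2, named after its value was seen. It had -1.07 ± 0.53 (unadjusted p = 0.0417 in the authors' deposited table). Of 20 tested in the valve 0 passed, where 0.419% of all genes did. Of the 20, 2 had an unadjusted p under 0.05, CSGALNACT1 and UGDH, beside 4.2% of all genes. There 18 values were higher in DMVD, with a median of 0.50, beside 8132 of all 14810 genes. There CSGALNACT1 had 8.74 FPKM in DMVD and 3.55 FPKM in control (1.30 ± 0.50, adjusted p = 0.531 from the authors' p), and UGDH had 18.3 FPKM in DMVD and 9.89 FPKM in control (0.89 ± 0.44). The DMVD effect on CSGALNACT1 differed between the tissues, valve minus ventricle, by 3.27 ± 0.72 (adjusted p = 0.00964 from the authors' statistics). Of all genes, 0.107% passed this test.

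The remaining matrix lists held 1 call. Of 2 large proteoglycans tested in the ventricle, VCAN (versican), the hyaluronan-binding proteoglycan, rose by 2.29 ± 0.45 (adjusted p = 5.76e-05 from the authors' p), with 10.7 FPKM in DMVD and 2.17 FPKM in control. The other, AGRN, had a lower DMVD value, 0.918 FPKM in DMVD and 1.93 FPKM in control (-1.07 ± 0.46). It did not pass (adjusted p = 0.266 from the authors' p). Both had an unadjusted p under 0.05 in the authors' deposited table, where 11.3% of all genes did, and 3.08% of all genes passed. The list median of 0.61 is the middle of 2 genes on opposite sides. None of the 3 tested in the valve passed (median 0.37), where 0.419% of all genes did, and 0 had an unadjusted p under 0.05. VCAN had 0.89 ± 1.14 there, with 138 FPKM in DMVD and 74.3 FPKM in control. No gene passed among keratan sulfate synthesis genes (0 of 7 in the valve, 0 of 6 in the ventricle), processing and cleaving proteases (0 of 6 and 0 of 5) or receptors and bound growth factors (0 of 7 and 0 of 6). Unadjusted p was under 0.05 for 0, 3 and 2 of them in the valve, where it was so for 4.2% of all genes, and for 0, 1 and 1 in the ventricle, where it was so for 11.3%. The list medians in the valve were 0.30, 0.57 and 0.51 in that order, and in the ventricle 0.23, -0.20 and 0.19. Of the symbols in these lists, 8 of 10, 8 of 13 and 9 of 18 were matched by name, so the rest were not examined. No gene of transforming growth factor beta itself was among the genes both matched by name and tested. ADAMTS4, an aggrecanase that also cleaves some members of the family, had 3.74 ± 1.21 in the ventricle (adjusted p = 0.0611 from the authors' p) and 2.90 ± 0.89 in the valve (adjusted p = 0.150). TLR4, a receptor for soluble BGN and DCN, had 1.42 ± 0.45 in the ventricle (adjusted p = 0.0526 from the authors' p) and 1.02 ± 0.47 in the valve. In the protease and receptor lists, the others under an unadjusted p of 0.05 were all in the valve. The matrix metalloproteinase gene MMP3 had a lower DMVD value there, 4.67 FPKM in DMVD and 13.9 FPKM in control (-1.57 ± 0.62, adjusted p = 0.620 from the authors' p). The aggrecanase gene ADAMTS5 had 1.60 ± 0.80 and the receptor gene MET 0.99 ± 0.48. These 5 genes and AGRN were named after their values were seen.

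**Figure D5:**
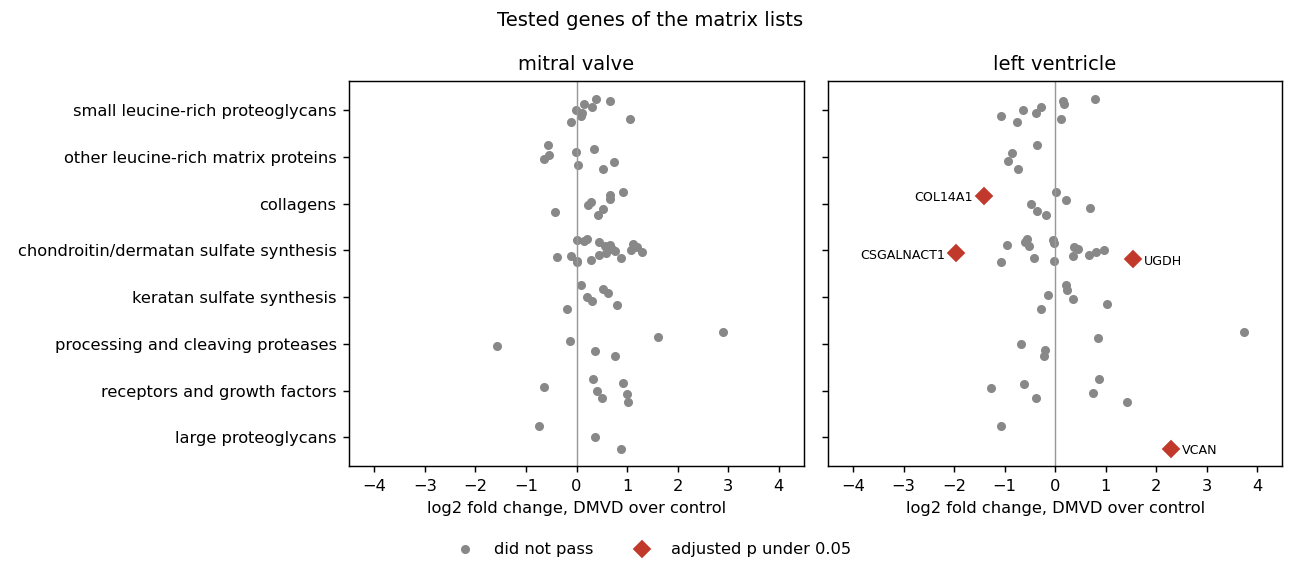
Log2 fold change of DMVD over control for each tested gene of the matrix lists, valve left and ventricle right, 1 point per gene with the genes of a list spread vertically for legibility; diamonds passed an adjusted p of 0.05 and grey points did not. The 4 diamonds, COL14A1, CSGALNACT1, UGDH and VCAN, are all in the ventricle, and none is a member of the family.

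Some markers of cell types passed in each tissue, where 0.419% of all genes did in the valve and 3.08% in the ventricle. The part of these cells in the values above was not tested. Of 7 cardiomyocyte markers in the valve, 6 had lower values in DMVD and 1 passed, with a summed level of 7656 FPKM in DMVD and 15039 FPKM in control. That gene, the ventricular light chain MYL3, had 36.6 FPKM in DMVD valves and 1335 FPKM in control valves. In the ventricle 0 of 6 tested cardiomyocyte markers passed, and the 6 summed to 16052.5 FPKM in DMVD and 19040 FPKM in control. MYH7 was left out of that sum, because the authors' deposited table marks it HIDATA in the ventricle, which Cuffdiff uses for loci with too many fragments, so its control entry of 0 was not taken as a level. Fibroblast and interstitial markers, of which 5 were tested, summed to 625.8 FPKM in DMVD valves and 473.8 FPKM in control valves, and to 107 FPKM in DMVD ventricles and 70.7 FPKM in control ventricles, with 0 passing in either tissue. In each tissue 4 of the 5 had higher DMVD values and 1 a lower one. Their median log2 fold change was 0.25 in the valve and 0.05 in the ventricle, where single markers ran from -0.43 to 1.45.

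The 6 tested macrophage markers all had higher values in DMVD. They summed to 212 FPKM in DMVD valves and 68.1 FPKM in control valves, and to 73.8 FPKM in DMVD ventricles and 29.6 FPKM in control ventricles, and the complement gene C1QB passed in each tissue. Erythroid markers summed to 608.2 FPKM in DMVD valves and 35.8 FPKM in control valves, where HBA passed, and to 3604 FPKM in DMVD ventricles and 62.6 FPKM in control ventricles, where all 4 passed. Endothelial markers summed to 78.9 FPKM in DMVD valves and 38.8 FPKM in control valves with 0 passing, and to 131 FPKM in DMVD ventricles and 56.8 FPKM in control ventricles, where VWF and ROBO4 passed. Smooth muscle markers summed to 1713 FPKM in DMVD valves and 786 FPKM in control valves, and to 255 FPKM in DMVD ventricles and 152 FPKM in control ventricles, with 0 of 5 passing in either. Of these 5, 4 had higher DMVD values in the valve, but 2 were higher and 3 lower in the ventricle (median log2 fold change -0.12). Tendon and cartilage markers summed to 226 FPKM in DMVD valves and 195 FPKM in control valves with 0 of 6 passing, and to 14.8 FPKM in DMVD ventricles and 4.59 FPKM in control ventricles, where THBS4 alone of 4 passed. In the valve 2 of the 6 tendon and cartilage markers were higher in DMVD and 4 lower (median -0.41). All 4 tested in the ventricle were higher. Apart from the ventricle cardiomyocyte sum, these sums cover every matched marker, tested or not, and the called markers were named after their values were seen. In such bulk samples a smaller share of cells that make a transcript and less transcript per cell cannot be told apart.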

How the data were processed

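Per the submitters' processing notes, reads were handled with cutadapt, Bowtie and TopHat on CanFam3.1; no source used here gives their versions or names the program behind the gene values. The authors deposited 1 table per tissue, laid out like a Cuffdiff gene table, with 1 value per diagnosis, read here as FPKM. The authors' deposited p-value is two-sided and unadjusted. The deposited log2 column is control over DMVD, and the deposited statistic is a score of the opposite sign. The p-values equalled the two-sided normal p of that statistic within 2.84e-06.

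Each log2 fold change was computed anew, as DMVD over control. The SE is the size of the fold change divided by the statistic. Gene p-values were adjusted by the Benjamini-Hochberg method over tested genes, and intervals are normal 95% intervals. The authors' test compared 3 DMVD with 3 control valve libraries and 2 DMVD with 4 control ventricle libraries. The calculation of calls, intervals and the tissue difference was checked on simulated data with known fold changes. These were drawn with the same SE that was then used, and separately for each tissue. The simulation therefore cannot show whether the SE reflects the spread between dogs or what the shared dogs change. Listed starts were raised by 1, since 147 of 168 olfactory receptor spans are a multiple of 3 only when counted from 0. Of 158 list symbols 117 matched, and 9 UniProt names were translated. Named genes were the 9 members and, per list and tissue, up to 4 called genes with the smallest p; others are said to be named otherwise. Alternatives were other adjustments, thresholds, added constants and median centring. Members and lists were chosen with earlier results of these data known. Library totals were not used, so depth and counting error are unknown. Tables were handled with pandas 2.3.3 and numpy 2.4.6 in Python 3.11.15, normal p-values came from scipy 1.17.1, and plots from matplotlib 3.10.9. No protein or promoter sequence was used here.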

Additional observations from a re-analysis of the deposited data

Results flagged for a closer look

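The valve minus ventricle effect of CSGALNACT1 was 3.27 ± 0.72 on the log2 scale (adjusted p = 0.00964 from the authors' statistics), which stood out because the DMVD effects of the tissues differed by their own test. Its log2 fold change was 1.30 ± 0.50 in the valve, where it did not pass, and -1.96 ± 0.52 in the ventricle. Of all 13099 genes, 0.107% passed this test, whose SE takes the tissues as independent although they share 4 dogs. The DMVD ventricle level was low, at 0.553 FPKM, and with 1 FPKM added the ventricle fold change was -1.02. The tissue difference was not recomputed with an added constant.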

How the results depend on the processing

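The count of members called was 0 in all 15 alternatives (adjustment over genes averaging 1 FPKM or more or over both tissues, Bonferroni, Benjamini-Yekutieli, a threshold of 0.10 and fold changes centred on the median gene, as far as each applied to the valve, the ventricle and the tissue difference). Bonferroni and Benjamini-Yekutieli adjustment are stricter than the main one, so the count could not rise under them. All 54 alternative fold changes of members, with 0.1 or 1 FPKM added or with centring, moved by less than 1 SE and kept their sign. A constant added to both groups cannot turn a sign, so only centring could have done so. With 1 FPKM added, FMOD had -0.31 and EPYC -0.17 in the ventricle; with centring, LUM had 0.07, OGN 0.06 and FMOD -0.04 in the valve. The log2 ratio of the summed level in the ventricle was 0.07 with DCN and -0.26 without it, a shift smaller than the SE of 0.40 that takes the 9 genes as independent, although they share the same dogs. Among the other matrix lists, 4 genes passed in the ventricle, but 1 under Bonferroni and 1 under Benjamini-Yekutieli, VCAN in each; these alternatives for the lists were added after the data were seen, and fewer calls follow from the stricter adjustment. With 1 FPKM added, CSGALNACT1 had -1.02 and COL14A1 -0.98 in the ventricle. No paired analysis was possible because the tables hold group values with no value per library, and for the same reason leaving out each library in turn was not run. The unknown depth and spread between dogs limit every comparison.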
